A study of Homo sapiens with 6 samples.

Results

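The p24 proteins, encoded by the TMED genes, are cargo receptors of the early secretory route. Rows of the deposited table were taken by gene symbol for TMED1, TMED2, TMED3, TMED4, TMED5, TMED7, TMED8, TMED9 and TMED10, 9 genes of 58825 in the table, and no symbol was repeated. They were compared between PANC-1 cells, a long-established line from a human ductal carcinoma of the pancreas, given 8 µM of a compound labelled CMR for 48 h and control PANC-1 cells, with 3 libraries of poly(A)-selected RNA each. What was given to control cells is not in the labels, and neither is whether cultures were separate within a group, so the p-values reflect library-to-library spread that may be technical. The comparison asked which transcripts differed with CMR.

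Most p24 proteins span the membrane once, with a lumenal GOLD domain and coiled-coil stretch that meet cargo and partner proteins, and a short cytosolic tail that binds the COPII coat for export from the endoplasmic reticulum (ER) and the COPI coat for return from the Golgi. They fall into alpha, beta, gamma and delta subfamilies, work as mixed complexes with members of several subfamilies, and depend on their partners for stability. Their best known clients are proteins held to the membrane by a glycosylphosphatidylinositol (GPI) anchor. In secretory cells of ductal origin the same route carries mucins, surface receptors and matrix proteins.

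Transcripts of 6 of the 9 genes were higher with CMR, 1 was lower and 2 were not called, with a median log2 fold change of 0.64. The highest folds were those of TMED7 (2.76-fold), TMED2 (2.65-fold) and TMED9 (2.01-fold). TMED3, TMED5 and TMED10 rose by smaller folds, from 1.52 to 1.62. TMED8, the member outside the subfamilies, was 1.83-fold lower, and TMED4 and TMED1 were not called. A call is an adjusted p under 0.05 (edgeR, quasi-likelihood, Benjamini-Hochberg over the 19200 genes tested), and every member passed the filter on low counts. Over all genes tested, 20.5% were called higher, 18.1% lower and 38.6% in either direction, with a median log2 fold change of -0.01. With upper-quartile scaling the median of all genes was -0.14, and 3250 genes were called higher and 4324 lower, against 3928 higher and 3476 lower with the scaling used here. The 6 higher and 1 lower p24 calls were the same in number under that scaling.

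Library totals were 66460535 to 70129221 counts with CMR and 51147268 to 63811430 in control, and the least counted member held 676 counts in its lowest library. FPKM is the authors' count per length of gene and size of library. All 5 markers of the carcinoma line had counts, but KRT7 was low, at 0.519 to 1.27 FPKM over the libraries of both groups. The 4 keratin genes among them, which are epithelial, had a summed FPKM of 145 to 271 with CMR and 604 to 698 in control, and VIM, a mesenchymal intermediate filament gene, had 188 to 262 FPKM with CMR and 617 to 632 in control. Of 5 adipose markers, looked at because the protocol text names such a tissue, LEP was at 0 and the others summed to at most 0.0830 FPKM with CMR and 0.164 in control. Of 4 immune markers CD3E was at 0, PTPRC reached 0.00669 FPKM, and CD68, which many other cells also express, made up nearly all of the sum of 24.2 to 30.8 with CMR and 26.2 to 32.7 in control. The endothelial markers and the fibroblast and muscle markers each summed to at most 0.0603 FPKM with CMR and 0.300 in control. The part of the lower keratin and VIM levels in the p24 results was not tested. In RNA from whole cultures, fewer cells of a type and less RNA per cell cannot be told apart.

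Promoters are shown for 4 members that rose, TMED2, TMED7, TMED10 and TMED3, and for TMED8, the member that fell, so that windows with and without the marked letters can be compared. RefSeq promoters (build GRCh38.p14) were held for 7 of the 9 members, and not for TMED4 and TMED9. Each line below gives the 250 bases before the RefSeq start, 5′ to 3′ on the strand of the gene. Capitals mark ACGTG or its reverse complement, the letters at the core of elements bound by the stress factors ATF6 and XBP1 and by many other bZIP and bHLH factors. TMED2 lies at chr12:123584302-123584551 on the plus strand, TMED7 at chr5:115626037-115626286, TMED10 at chr14:75176613-75176862 and TMED8 at chr14:77377095-77377344, all 3 on the minus strand, and TMED3 at chr15:79310862-79311111 on the plus strand. The deposited table places the start of TMED2 near the end of its window.
TMED2: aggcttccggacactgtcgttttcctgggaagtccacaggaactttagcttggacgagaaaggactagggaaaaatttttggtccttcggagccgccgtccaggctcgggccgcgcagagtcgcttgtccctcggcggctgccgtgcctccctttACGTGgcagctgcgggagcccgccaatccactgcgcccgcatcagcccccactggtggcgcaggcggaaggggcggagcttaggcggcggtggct
TMED7: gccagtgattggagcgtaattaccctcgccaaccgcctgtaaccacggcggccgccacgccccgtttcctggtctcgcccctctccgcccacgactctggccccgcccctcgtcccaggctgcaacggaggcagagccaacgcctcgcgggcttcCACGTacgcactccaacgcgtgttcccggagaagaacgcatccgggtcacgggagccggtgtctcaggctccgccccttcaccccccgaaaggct
TMED10: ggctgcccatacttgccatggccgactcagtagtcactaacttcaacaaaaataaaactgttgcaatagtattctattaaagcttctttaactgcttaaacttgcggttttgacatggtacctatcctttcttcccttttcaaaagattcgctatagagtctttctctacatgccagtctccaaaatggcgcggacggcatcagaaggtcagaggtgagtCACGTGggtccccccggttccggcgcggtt
TMED3: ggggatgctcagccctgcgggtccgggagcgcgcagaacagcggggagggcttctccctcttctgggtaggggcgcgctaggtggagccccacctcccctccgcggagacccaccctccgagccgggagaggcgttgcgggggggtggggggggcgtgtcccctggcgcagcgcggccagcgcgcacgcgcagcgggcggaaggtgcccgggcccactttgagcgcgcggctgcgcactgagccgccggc
TMED8: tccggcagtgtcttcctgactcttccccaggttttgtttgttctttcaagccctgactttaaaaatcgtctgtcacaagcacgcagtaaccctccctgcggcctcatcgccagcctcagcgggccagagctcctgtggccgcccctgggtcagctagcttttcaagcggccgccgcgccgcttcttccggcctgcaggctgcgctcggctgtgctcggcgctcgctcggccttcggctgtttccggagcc
In both TMED2 and TMED7 the core lay from base -95 to base -91 before the RefSeq start, on the gene's strand in TMED2 and on the other strand in TMED7. The deposited table starts TMED2 at 123584533, inside its window. Counted from there its core lies nearer the start, so the shared position holds for RefSeq starts only. In TMED10 it was read on both strands, overlapping, from base -30 to base -25. The letters were not in the windows of TMED3 and TMED8, nor in those of TMED1 (not called) and TMED5 (called higher), which are not printed. ACGTG was thus in 3 of the 7 member genes with a promoter and in 18.5% of 35116 RefSeq promoters of the same length. Member figures here count genes, which hold 8 promoters between them, while the percentages count promoters. The full ER stress element, CCAAT and CCACG with 9 bases of any kind between them, was in 0 of the 7 genes and in 0.0740% of all promoters, searched on both strands like the other motifs. Its variant, ATTGG and CCACG with 1 base between them, was in 0 of the 7 and in 0.0513%, and TGACGTGG, which contains the core, in 0 of the 7 and in 0.612%. These longer motifs are so rare among all promoters that 0 of 7 tells little about the members. CCAAT, which is part of the full element, was in 4 of the 7 (TMED1, TMED2, TMED5 and TMED7) and in 32.0% of all promoters. The TMED7 window is also the RefSeq promoter of the read-through gene TMED7-TICAM2.

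TMED2 is the single beta member in humans and is needed for embryonic and placental development in mice. It had 508, 548 and 591 normalised CPM (the count relative to library size, with a composition factor) with CMR, against 210.0, 204 and 208 in control. Every CMR library was above every control library, and the control libraries lay close together. The log2 fold change was 1.40 ± 0.08 (SE, edgeR adjusted p = 6.57e-05). Per length, TMED2 was the most abundant member in both groups, at 117 ± 6.797 FPKM with CMR and 46.7 ± 0.595 FPKM in control (SD, n = 3). TMED2 (ENSG00000086598) spans 123584533 to 123597342 on the plus strand of chromosome 12, in the coordinates of the table, and 7.47% of its exon bases are shared with an antisense entry that held 0.535% of its mean count.

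**Figure D1:**
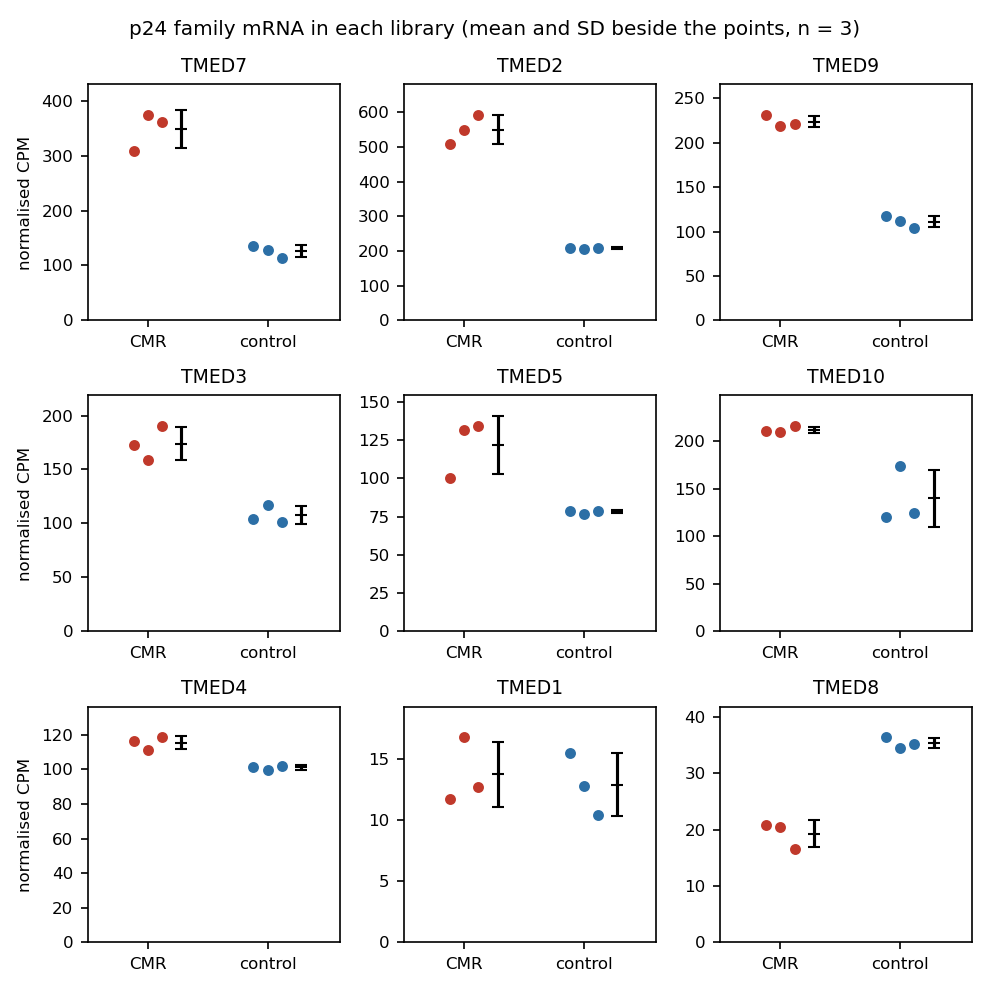
Normalised CPM of each p24 member in each library, with CMR libraries (red) left of control libraries (blue) and the mean ± SD (n = 3) beside the points, each panel on its own axis from 0. TMED7, TMED2 and TMED9 lie highest above control, TMED8 lies below control in every library, and the groups overlap in TMED1.

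Of the gamma subfamily genes among the 9, TMED7, TMED3 and TMED5 were called higher and TMED1 was not. TMED7 takes part in export of the lipopolysaccharide receptor TLR4 from the ER. It had 308, 373 and 362 normalised CPM with CMR, against 135, 128 and 114 in control. The lowest CMR library was more than double the highest control library, and the log2 fold change was 1.47 ± 0.11 (SE, edgeR adjusted p = 0.00015). TMED7 (ENSG00000134970) spans 115613210 to 115626036 on the minus strand of chromosome 5. It shares 24.01% of its exon bases with TMED7-TICAM2 on the same strand, a read-through into the gene for the TLR adaptor TRAM, so that reads in these exons could belong to either. TMED7-TICAM2 held 4.17% of the TMED7 mean count, at 14.4 ± 6.08 normalised CPM in CMR libraries and 5.42 ± 0.771 in control (SD, n = 3), and was called higher as well (log2 fold change 1.41, edgeR adjusted p = 0.0105).

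TMED3 had 173, 159 and 190.0 normalised CPM with CMR, against 104, 117 and 101 in control. The groups did not overlap, and the log2 fold change was 0.69 ± 0.10 (SE, edgeR adjusted p = 0.00184). TMED3 (ENSG00000166557, chromosome 15, plus strand) spans 79311112 to 79427432, the longest span of the 9. TMED5, which has been linked to the export of WNT ligands, had 99.96, 131 and 134 normalised CPM with CMR, against 78.6, 76.9 and 78.8 in control. All 3 CMR libraries were above control, replicate 1 least so, with a log2 fold change of 0.64 ± 0.12 (SE, edgeR adjusted p = 0.00620). TMED5 (ENSG00000117500, chromosome 1, minus strand, 93149742 to 93180516) shares 7.16% of its exon bases with CCDC18 on the other strand. CCDC18 held 19.8% of the TMED5 mean count and was lower with CMR (log2 fold change -0.71, edgeR adjusted p = 0.0321), a call lost without control replicate 1 (0.0587), 2 (0.0722) or 3 (0.104).

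TMED1, first described as a binding partner of the interleukin receptor ST2, had 11.7, 16.8 and 12.7 normalised CPM with CMR, against 15.5, 12.8 and 10.4 in control. The groups overlapped, and TMED1 was not called (log2 fold change 0.09 ± 0.21 SE, edgeR adjusted p = 0.762). Its sign turned with upper-quartile scaling (-0.04), without CMR replicate 2 (-0.08) and without control replicate 3 (-0.04). TMED1 (ENSG00000099203, chromosome 19, minus strand, 10832067 to 10836249) shares 51.3% of its exon bases with DNM2, the dynamin 2 gene, on the other strand. DNM2 averaged 91.5 normalised CPM with CMR and 102 in control, and its mean count was 725% of that of TMED1. The labels do not say whether the libraries kept strand, so reads in the shared bases cannot be assigned here, and the TMED1 values are uncertain.

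Of the alpha subfamily pair, TMED9 was called higher and TMED4 was not, and the difference between their changes was not tested. TMED9, known for holding a misfolded mucin 1 protein in the early secretory route in kidney cells, had 231, 219 and 221 normalised CPM with CMR, against 117, 112 and 104 in control. The libraries of each group lay close together, and the log2 fold change was 1.01 ± 0.08 (SE, edgeR adjusted p = 0.000183). TMED4 had 117, 111 and 119 normalised CPM with CMR, against 102, 99.8 and 102 in control. Each CMR library was above each control library, but the difference was small and was not called (log2 fold change 0.19 ± 0.08 SE, edgeR adjusted p = 0.0872). The groups did not overlap in 8 of the 9 members, and in 53.9% of all genes tested. TMED9 (ENSG00000184840) spans 177592158 to 177596124 on the plus strand of chromosome 5 and TMED4 (ENSG00000158604) 44577894 to 44582287 on the minus strand of chromosome 7. No other gene of the table overlaps either.

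TMED10 is the single delta member, a partner of TMED2 in p24 complexes that also modulates gamma-secretase, the protease that cuts the amyloid precursor protein. It had 211, 209.5 and 215 normalised CPM with CMR, against 121, 174 and 125 in control. The CMR libraries were nearly equal, and control replicate 2 stood well above the other control libraries. The log2 fold change was 0.60 ± 0.15 (SE, edgeR adjusted p = 0.0154). The call was lost without control replicate 1 (log2 fold change 0.51, edgeR adjusted p = 0.0556) or control replicate 3 (0.53, edgeR adjusted p = 0.0571), and without control replicate 2 the log2 fold change was 0.79 (edgeR adjusted p = 0.00305). TMED10 (ENSG00000170348) spans 75131469 to 75176612 on the minus strand of chromosome 14.

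TMED8 carries a GOLD domain but is not placed in the p24 subfamilies. It had 20.9, 20.5 and 16.5 normalised CPM with CMR, against 36.4, 34.5 and 35.2 in control. Every CMR library was below every control library, with a log2 fold change of -0.87 ± 0.13 (SE, edgeR adjusted p = 0.00185). TMED8 (ENSG00000100580) covers 77335029 to 77377094 of chromosome 14, minus strand. It shares no exon base with the genes whose spans overlap its own.

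**Figure D2:**
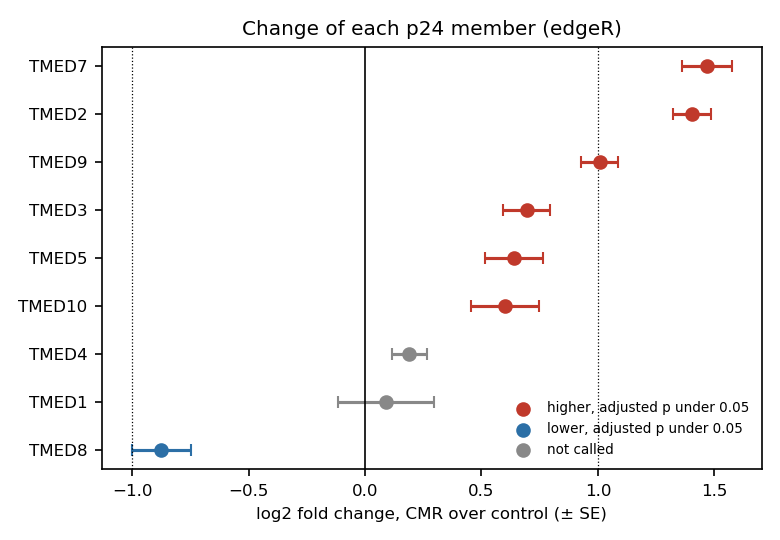
Log2 fold change of each p24 member, CMR over control, with a standard error derived from the edgeR F statistic. Red points were called higher, the blue point lower and grey points were not called, and dotted lines mark a 2-fold change. TMED7, TMED2 and TMED9 lie past 1, and TMED8 lies at -0.87.

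The make-up of p24 mRNA per length also differed between the groups. Summed over the 9 genes, FPKM was 338, 351 and 356 with CMR, against 185, 189 and 173 in control, and the mean sum was 1.91 times that of control. TMED2 made up 33.6 ± 1.14% of the sum with CMR and 25.7 ± 1.27% in control (SD, n = 3), and TMED7 20.1 ± 1.31% with CMR and 14.7 ± 0.839% in control. TMED4 took 7.20 ± 0.400% with CMR and 12.7 ± 0.686% in control, and TMED10 10.1 ± 0.390% with CMR and 13.3 ± 2.48% in control. The share of TMED9, at 21.6 ± 1.55% with CMR and 21.6 ± 0.706% in control, overlapped between groups, while the shares of the other 8 members did not. This count has no counterpart over all genes. The shares in a library add up to 100%, so larger shares of TMED2 and TMED7 lower those of other members. TMED3, TMED5 and TMED10 had lower shares although they were called higher, and TMED1 although it was not called. These shares are descriptions, without a test, and they depend on the length each gene is divided by. Per kilobase of the principal coding transcript, a scale chosen after seeing the data, TMED7 made up 13.0 ± 1.04% with CMR and 9.11 ± 0.566% in control. On that scale TMED3 made up 16.6 ± 1.13% with CMR and 19.8 ± 0.891% in control, against 2.11% with CMR and 2.62% in control by FPKM. Any reads from longer transcripts of TMED3 count in its share per kilobase. The shares of TMED2 and TMED7 were higher with CMR and those of TMED4, TMED10, TMED5, TMED3, TMED1 and TMED8 lower on both scales, and TMED9 overlapped on both.

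Seen by subfamily, the FPKM of the beta gene was 2.51 times that of control, that of the 4 gamma genes taken here together 2.10 times, that of the alpha genes 1.601 times and that of the delta gene 1.44 times. Like the summed FPKM above, these ratios lack the composition factor used for normalised CPM. In edgeR, with that factor, TMED2, the beta gene, was 2.65-fold and TMED10, the delta gene, 1.52-fold higher. Sums of several genes depend on the length each gene is divided by. Of the mean gamma sum, 94.1 FPKM with CMR and 44.7 in control, TMED7 held 70.1 with CMR and 26.8 in control. Within the alpha pair, the FPKM ratio of TMED9 to TMED4 was 3.06, 3.04 and 2.88 with CMR, against 1.78, 1.74 and 1.58 in control, with no overlap. Between TMED2 and its delta partner TMED10 the ratio was 3.11, 3.38 and 3.55 with CMR, against 2.25, 1.52 and 2.15 in control, also with no overlap. The ratio of TMED2 to TMED7, in contrast, had a mean of 1.67 ± 0.106 in CMR libraries, against 1.754 ± 0.159 in control libraries (SD, n = 3), and the groups overlapped.

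**Figure D3:**
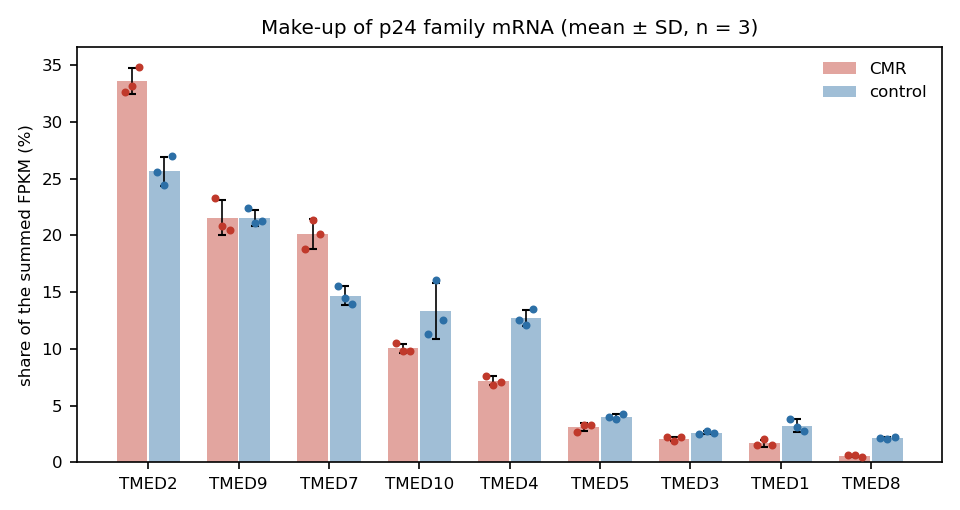
Share of the summed FPKM of the 9 members taken by each, as the mean (bar), SD (line) and libraries (points), with CMR in red to the left of control in blue. TMED2 and TMED7 take a larger share with CMR, TMED4, TMED10, TMED5, TMED3, TMED1 and TMED8 a smaller one, and TMED9 about the same. Shares in each library add up to 100%.

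By deposited FPKM the order with CMR was TMED2, TMED9, TMED7, TMED10, TMED4, TMED5, TMED3, TMED1 and TMED8, at 117, 74.98, 70.1, 35.0, 25.0, 10.8, 7.33, 5.94 and 2.03 FPKM on average. Neighbours in that order whose libraries overlapped were TMED9 with TMED7 and TMED3 with TMED1. In control the order was the same but for TMED1 standing above TMED3, with means of 46.7, 39.3, 26.8, 24.3, 23.2, 7.31, 5.89, 4.78 and 3.93 FPKM. There TMED7 overlapped TMED10, TMED10 overlapped TMED4, and TMED1 overlapped TMED3. The place of TMED3 depends on the length it is divided by. Its merged exons in GENCODE release 29 add up to 19470 bases, including those of a transcript of 16555 bases, while its principal coding transcript has 1475. With the summed counts of a library taken as its size, the length implied by its deposited count and FPKM was 23021 to 23172 bases. The implied length was 1.19 times the merged exon length for TMED3, 1.48 times for TMED1 and from 1.16 to 1.24 times for the rest. The library size used for FPKM is not given. A larger library size and a longer gene length cannot be told apart here, so the length TMED3 was divided by is not known. Per kilobase of the principal transcript, a scale chosen after seeing the data, TMED3 had 118 ± 10.5 CPM with CMR and 72.9 ± 5.68 in control (SD, n = 3) and ranked 3 of 9 in both groups, against rank 7 with CMR and 8 in control by FPKM. This scale divides the count of the whole gene, so reads from the longer transcript would raise the level of TMED3. TMED7 ranked 4 with CMR and 6 in control on that scale, against 3 in both groups by FPKM.

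**Figure D4:**
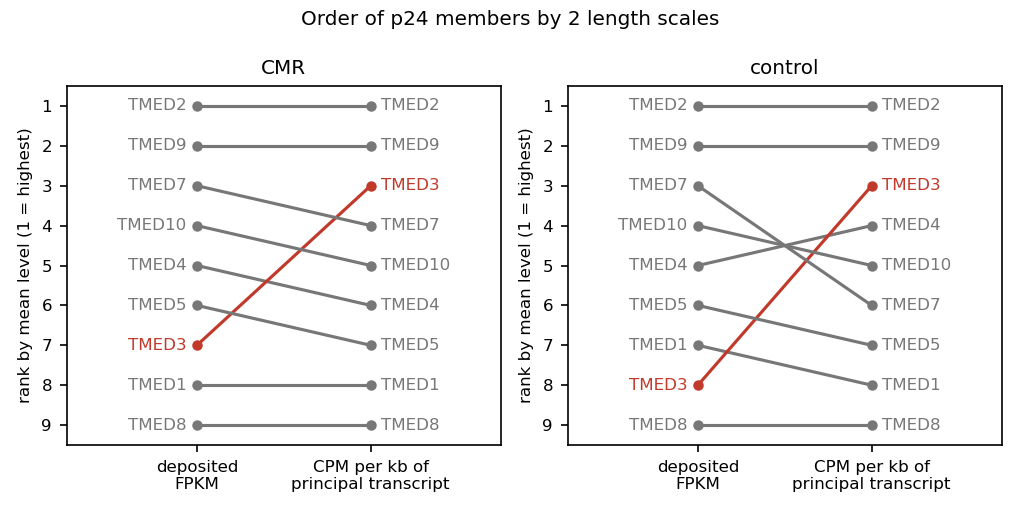
Rank of the 9 members by mean level (1 is the highest) by deposited FPKM, left in each panel, and by CPM per kilobase of the principal coding transcript, right, with CMR in the left panel and control in the right. TMED3 (red) moves to rank 3 with CMR, against 7 by FPKM, and to rank 3 in control, against 8 by FPKM, and TMED7 to rank 4 with CMR and 6 in control, against 3 by FPKM, while TMED2 and TMED9 keep ranks 1 and 2.

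Most listed genes of the coats that carry p24 proteins were called higher, against 20.5% of all genes tested. Of the 17 genes of the COPI coat and its ARF cycle, which serve retrograde transport, 10 were higher, 1 lower and 6 not called, with a median log2 fold change of 0.83. ARF4, a small GTPase of the Golgi and its intermediate compartment, had a mean of 926 ± 110 normalised CPM in CMR libraries, against 126 ± 7.85 in control libraries (SD, n = 3 each), and its log2 fold change was 2.88 (adjusted p in edgeR = 2.69e-05). The coat subunit genes COPA, COPB2 and COPB1 were 3.20-fold, 3.02-fold and 2.62-fold higher. COPG2, an alternative gamma subunit named after its value was known, fell (log2 fold change -0.87, edgeR adjusted p = 0.00147). In this list 2 genes were lower without CMR replicate 1, and 2 with upper-quartile scaling or on FPKM values.

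Of 16 tested genes of the COPII coat and ER exit sites, 12 were higher, 0 lower and 4 not called in edgeR, with a median log2 fold change of 1.24. At an unadjusted p under 0.05 the count of lower genes was 0 too, as it was by DESeq2 and limma. SEC24D and SEC24A, cargo-selecting coat subunits, were 8.73-fold and 5.70-fold higher. SEC24D had a mean of 228 ± 29.3 normalised CPM in CMR libraries, against 26.1 ± 1.18 in control libraries (SD, n = 3 each), and its log2 fold change was 3.13 (adjusted p in edgeR = 2.69e-05). The other SEC24 genes, SEC24B (log2 fold change -0.01) and SEC24C (-0.02), named after their values were known, were not called (edgeR adjusted p = 0.968 and 0.912). MIA2 and MIA3, which help to load bulky cargo such as collagens at exit sites, were 4.01-fold and 3.3999-fold higher. HSPA5, the main chaperone of the ER lumen and given here for scale, was 11.5-fold higher, a larger fold than that of any p24 member.

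Among 15 cargo receptors outside the p24 family, 5 were higher, 3 lower and 7 not called, with a median of 0.29. In either direction 53.3% of these receptors were called, against 38.6% of all genes tested. Of all genes tested, 20.5% were called higher and 18.1% lower, with a median of -0.01. KDELR3 and KDELR2, which return escaped ER proteins, were 4.63-fold and 2.65-fold higher. MCFD2, the partner of the lectin LMAN1 in export of clotting factors, was 3.10-fold higher, and CNIH2, a cornichon homologue, was 4.98-fold lower at 0.506 ± 0.0516 normalised CPM with CMR and 2.53 ± 0.511 in control (SD, n = 3; edgeR adjusted p = 0.000800). With genes averaging under 1 FPKM left out, or on FPKM values, 1 receptor was lower in place of 3.

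**Figure D5:**
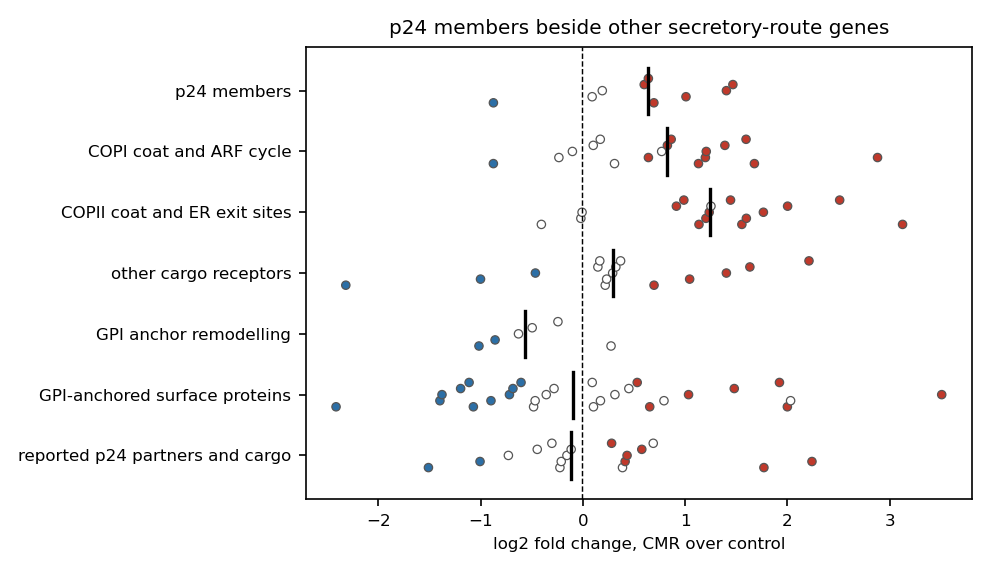
Log2 fold change, CMR over control, of the 9 p24 members and of each tested gene in the lists of related genes. TMED6, TMED7-TICAM2 and the pseudogenes are not plotted. Filled points are calls (red higher, blue lower) and open points are genes not called. A bar marks each list's median and a dashed line the median of all genes tested. The COPII list has the highest median, 1.24, the p24 members 0.64, and the GPI anchor remodelling list the lowest, -0.56.

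Of the genes that prepare GPI-anchored clients 33.3% were called in either direction, against 38.6% of all genes tested. Of 6 enzymes that remodel or cut GPI anchors, 0 were called higher, 2 lower and 4 not called in edgeR, with a median of -0.56, against -0.01 over all genes tested. At an unadjusted p under 0.05, and by DESeq2 and limma, 0 were higher as well. PGAP1, which removes the inositol-linked acyl chain of the anchor in the ER, had a mean of 18.6 ± 3.13 normalised CPM in CMR libraries, against 37.6 ± 2.13 in control libraries (SD, n = 3 each), and its log2 fold change was -1.02 (adjusted p in edgeR = 0.00179). MPPE1, also known as PGAP5, trims the anchor so that p24 proteins can bind it, and was 1.81-fold lower. Without CMR replicate 1, 4 of these genes were called lower. Of 28 tested GPI-anchored surface protein genes, 7 were higher, 10 lower and 11 not called, with a median of -0.09 that lay close to that of all genes tested. In either direction 60.7% of these 28 genes were called. Of all genes tested, 38.6% were called, 20.5% higher and 18.1% lower. ULBP1 and ULBP3, ligands of the immune receptor NKG2D, were 11.4-fold and 3.9995-fold higher, and the prion protein gene PRNP was 3.79-fold higher. THY1 was 5.32-fold lower at 0.494 ± 0.108 normalised CPM with CMR and 2.64 ± 0.394 in control (SD, n = 3; edgeR adjusted p = 0.000786). Without CMR replicate 1, CMR replicate 2 or control replicate 2, and on FPKM values, 4 of these genes were called higher in place of 7.

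Of 17 tested genes for proteins reported as p24 partners or cargo, 6 were higher, 2 lower and 9 not called, with a median of -0.11. In either direction 47.1% of this list was called, against 38.6% of all genes tested. Over all genes tested, 20.5% were called higher and 18.1% lower, with a median of -0.01. GORASP2, the Golgi stacking protein GRASP55 that binds p24 tails, had a mean of 273 ± 17.3 normalised CPM in CMR libraries, against 80.1 ± 2.27 in control libraries (SD, n = 3 each), and its log2 fold change was 1.77 (adjusted p in edgeR = 4.28e-05). IL1RL1, which encodes the ST2 receptor, was 4.73-fold higher. MUC1, a cell surface mucin, was 2.85-fold lower and F2RL1, the protease-activated receptor PAR2 that TMED2 helps to export, 2.01-fold lower. Without control replicate 2, 3 genes of this list were called higher in place of 6.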

How the data were processed

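RNA of 3 CMR-treated and 3 control PANC-1 libraries was sequenced as paired-end reads after poly(A) selection, per the labels' protocols. The deposited count values are whole numbers per gene. How reads were assigned to genes is not given in the sources used here. FPKM as deposited relates each count to length of gene and size of library, and lists 0.0001 where the count is 0. Among tools, the submitters' processing notes name StringTie 1.3.0, HISAT2 2.0 and Bowtie 0.12.2, and among builds the mouse build mm8, but the identifiers and coordinates in the table are human and were read as GRCh38.

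Counts were tested with edgeR 4.0.16 in R 4.3.3 (filterByExpr with a minimum count of 10 and a minimum total of 15, TMM scaling, quasi-likelihood test, Benjamini-Hochberg over 19200 genes). The SE of a log2 fold change was derived as its absolute value divided by the square root of the F statistic of that test. Shares and ratios were computed from FPKM. Exon lengths came from GENCODE release 29 and promoters from RefSeq. Alternatives used limma 3.58.1 and DESeq2 1.42.0. Precision is set by n = 3 per group and by totals of 51147268 to 70129221 counts. Members and lists were chosen with earlier results of these data known. Named genes were all members, up to 4 called genes of each list with the largest change, HSPA5, the 5 genes most like the most abundant member, and genes overlapping a member with at least 10% of its mean count. COPG2, SEC24B, SEC24C, KDELR1, TMED6 and the pseudogenes were named outside this rule, after their values were seen. The table had 0 columns of no sample.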

Additional observations from a re-analysis of the deposited data

How the results depend on the processing

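Between 5 and 6 members were called higher and 1 lower under the 15 alternatives that could change the count. Summing rows of a repeated symbol changed nothing, since no member symbol was repeated. The calls of TMED2, TMED3, TMED5, TMED7, TMED8 and TMED9 and the absence of a call for TMED4 held under all 15. Log2 fold changes ranged from 1.27 to 1.45 for TMED2, from 1.34 to 1.54 for TMED7, from 0.88 to 1.05 for TMED9 and from -1.0025 to -0.70 for TMED8. The call of TMED10 was lost without control replicate 1 (0.51) and without control replicate 3 (0.53). The log2 fold change of TMED1, not called under any alternative, was 0.09 and changed sign with upper-quartile scaling (-0.0392). With 1 library left out it ranged from -0.0769 to 0.2476, and was below 0 without CMR replicate 2 (-0.0769) and without control replicate 3 (-0.0419). The cause was not tested. Genes called over the whole table numbered 5660 to 7711 with 1 library left out, against 7404 with all. With the replicate number as a block, 6737 genes, 6 higher members and 1 lower member were called. Same-numbered libraries deviated together with r from 0.06 to 0.07, and differently numbered ones with r from -0.04 to -0.03, so each library correlated best with its own number, which is a hint from the data and not from the design. TMED1 had 676 to 1141 counts per library and a log2 fold change with an SE of 0.21, and TMED8, with 1081 to 2305 counts, an SE of 0.13. What depth limits was not compared across members, and the share of TMED1 reads that belongs to DNM2 was not measured. Shares of the members per kilobase of the principal transcript kept the direction they had by FPKM, except that of TMED9, whose groups overlapped on both scales (21.4% with CMR and 20.5% in control per kilobase).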

Other observations

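Other family entries were scarce. TMED6, a gamma subfamily gene, averaged 0.536 normalised CPM with CMR and 0.507 in control and was not called (edgeR adjusted p = 0.890). The pseudogene TMED10P2 averaged 0.195 normalised CPM with CMR and 0.193 in control, and TMED11P and TMED10P1 had no count in any library.

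The genes whose normalised log2 CPM over the 6 libraries was most like that of TMED2, the most abundant member, were GOLGA2, which encodes the Golgi matrix protein GM130, RSL24D1, a ribosome assembly factor, YIPF5, a membrane protein of ER to Golgi transport, DNAJB9, an ER co-chaperone, and NFIL3, a bZIP transcription factor. Pearson's r with TMED2 was at least 0.9996 for each. The 6 libraries form separate CMR and control clusters, so these values mostly restate the difference between the groups, and 448 of 6078 candidate genes had r above 0.99. TMED7 ranked 338 among them, with r = 0.992, and TMED9 554, with r = 0.987. YIPF5 was called higher with a log2 fold change of 2.48 and GOLGA2 with 1.73 (edgeR adjusted p = 4.28e-05 and 6.23e-05).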
